A study of Drosophila melanogaster with 6 samples.

Results

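Rab proteins are small GTPases that mark membrane compartments. Each cycles between a GTP-bound form that recruits effectors and a GDP-bound form that is held in the cytosol by GDI. An escort protein presents new Rab proteins to the enzyme that attaches their lipid anchors, exchange factors (GEFs) switch them on and activating proteins (GAPs) switch them off. In the absorptive cells of a gut, this family sorts cargo between the secretory pathway, endosomes, lysosomes and the plasma membrane.

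The genes described here are the Rab genes other than Rab11 in adult Drosophila melanogaster midguts in which Rab11, the GTPase of recycling endosomes, was depleted. They are the rows of the count table whose name starts with Rab or RabX followed by a digit, leaving out Rab11. Of 15391 rows, 28 fit this rule, and 18 of the 28 had at least 10 counts in 3 libraries. RNA sequencing was done on total RNA of dissected midguts from Rab11_KD flies, which expressed Rab11 RNA interference under Myo1A-Gal4, and from WT control flies, with 3 libraries each. Myo1A-Gal4 is active in enterocytes, Rab11 was not measured by cell type, and the RNAi line is not named in the labels. Both groups spent 5 days at 29 °C, beginning when the adults were 5 days old. The labels do not state that replicates are independent fly pools, and the p-values then cover no more than the spread among 6 libraries, part of which may be technical.

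The libraries held 9818914 to 33082790 counts, and the replicate 3 libraries were the deepest of each group. Levels are CPM scaled by TMM, a factor that makes the bulk of genes comparable between libraries. Changes are log2 fold changes of Rab11_KD over WT, tested by quasi-likelihood in edgeR, with p-values adjusted over 8377 genes (Benjamini-Hochberg). Rab11 was at 64.4, 78.2 and 78.7 CPM in the Rab11_KD libraries and at 319, 269.6 and 219 CPM in the WT libraries, a log2 fold change of -1.87. The labels give the cell type as enterocyte. Enterocyte markers were present, with 0 of 8 called by edgeR (2 higher and 1 lower at an unadjusted p under 0.05, 1 higher and 2 lower by DESeq2). Their summed levels were 11578 to 44884 CPM in Rab11_KD and 40624 to 82224 CPM in WT. Most of each sum came from the digestive enzyme genes betaTry, alphaTry and Amy-p, with log2 fold changes below 0 (-1.68, -1.53 and -0.80). Myo31DF was also below 0 (-0.55). For Myo31DF and betaTry every Rab11_KD library was below every WT library. The log2 fold changes of nub, pdm2, Npc1b and mex1 were above 0 (0.39, 0.97, 0.26 and 1.02). Enteroendocrine markers were called as higher in 12 of 14 cases, against 9.05% of all genes, with sums of 1283 to 1489 CPM in Rab11_KD and 554 to 608 CPM in WT. Stem cell and enteroblast markers were called as higher in 5 of 8 cases (Dl, Sox21a, sna, Sox100B and HLHm3), with sums of 179 to 189.6 CPM in Rab11_KD and 43.5 to 98.7 CPM in WT. The markers esg (0.40), HLHmbeta (0.42) and klu (-0.44) overlapped between the groups and were not called (edgeR adjusted p = 0.354, 0.549 and 0.348). No visceral muscle marker was called among 10 (1 at an unadjusted p under 0.05, 1 by DESeq2). Of the 18 tested markers of trachea, haemocytes, fat body, Malpighian tubules or ovary, none was called (1 at an unadjusted p under 0.05, 1 by DESeq2). The 4 tested fat body markers all had log2 fold changes above 0 (median 1.48), and 2 of 6 Malpighian tubule markers did (median -0.42). Fat body markers summed to 269 to 1038 CPM in Rab11_KD and 69.2 to 381 CPM in WT. Malpighian tubule markers summed to 276 to 613 CPM in Rab11_KD and 286 to 780 CPM in WT. No marker of any of these lists was at 0 in every library, but some were too scarce to be tested. These were Hml, nimC1, He and eater of haemocytes, Lsp2, Fbp1 and Fbp2 of fat body, and osk, nos, vas, bcd and Cp36 of ovary. He and Cp36 had 1 count, in Rab11_KD replicate 3 alone.

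Of the 18 expressed Rab genes, 3 passed the test, all as higher in Rab11-depleted midguts (Rab2, Rab14 and Rab39), against 9.05% of all genes. The log2 fold change was above 0 for 16 of 18 genes, against 51.9% of all tested genes, and below 0 for Rab9 and RabX6. Every Rab11_KD library was above every WT library for 11 of the 18, against 20.2% of all genes, and below for none, against 17.7%. The median log2 fold change was 0.68 over the 18 genes and 0.04 over all genes tested. Scaled by library size only, the medians were 1.11 for the 18 and 0.47 for all genes, since a change of scaling moves all genes nearly alike. In bulk samples, a change in the share of cells of a type and a change of RNA per cell cannot be told apart, and the part of the marker changes given above in these values was not tested.

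Rab2, Rab39 and Rab14 rose at an adjusted p under 0.05, and none of the 18 fell (0 lower at an unadjusted p under 0.05, 0 by DESeq2), against 9.05% of all genes called as higher, 7.63% as lower and 16.7% in all. At an unadjusted p under 0.05, 10 of the 18 were higher, against 16.8% of all genes. With the replicate number as a block, the same 10 were called (Rab1, Rab2, Rab3, Rab5, Rab6, Rab7, Rab10, Rab14, Rab30 and Rab39), against 15.2% of all genes called as higher. The labels state no pairing by replicate number, and only the replicate 3 libraries correlated most with each other. The p-values with the block, here and below, rest on that assumed pairing. The calls depended on single libraries. None of the 18 was called without Rab11_KD replicate 1 (3.25% of all genes higher), without Rab11_KD replicate 2 (4.05%), without WT replicate 1 (3.21%) or without WT replicate 2 (4.6%). Rab1 alone was called without WT replicate 3 (6.14% of all genes higher), and Rab2, Rab6 and Rab14 were called without Rab11_KD replicate 3 (6.88%). Without both replicate 3 libraries, Rab1, Rab2, Rab6, Rab14 and Rab39 were called (9.95%). With other scalings in edgeR, Rab2 and Rab39 were called with DESeq2 size factors (8.56% of all genes higher), 4 genes with library sizes alone (13.8%) and 6 with upper-quartile factors (10.3%). Without a filter on low counts Rab2 alone was called (4.77%), and with a minimum of 10 counts in 3 libraries the count was 3 (8.73%). An exact two-sided permutation test gave p = 0.1 for each of the 11 genes whose groups did not overlap, the smallest p that 3 libraries against 3 allow.

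**Figure D1:**
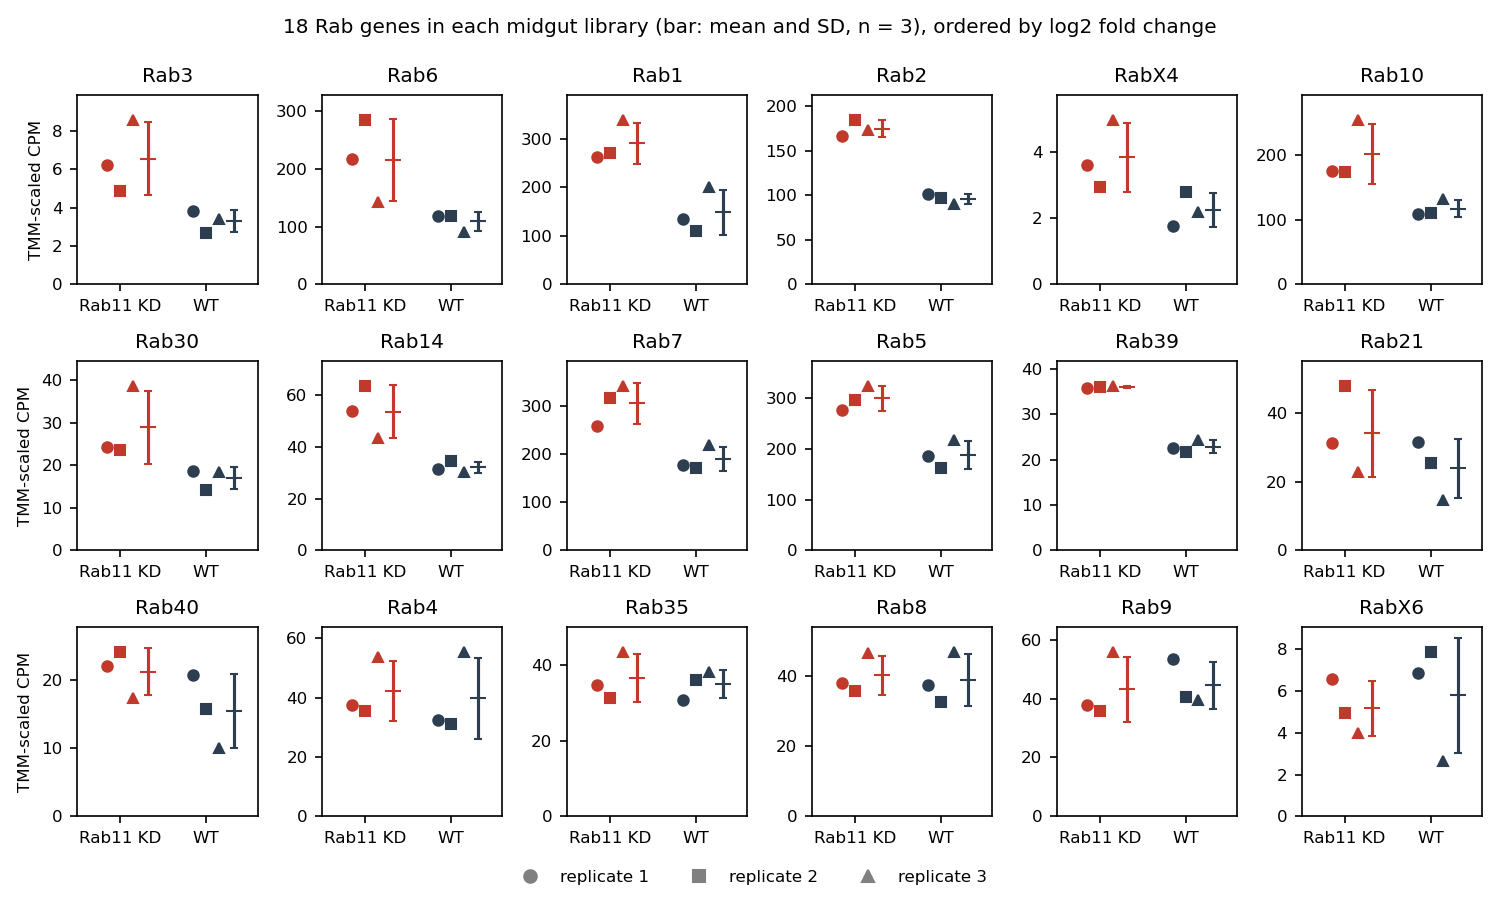
TMM-scaled CPM of 18 Rab genes in each library, with Rab11_KD in red left of WT in dark blue, a marker shape for each replicate number, and bars for the mean and SD (n = 3). In the upper panels, down to Rab39, the red points all lie above the dark blue ones, and from Rab21 on the groups overlap.

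Of the 4 genes of the secretory pathway (Rab1, Rab2, Rab6 and Rab30), 1 passed the test, Rab2. All 4 were higher in Rab11_KD without overlap, against 20.2% of all genes, with log2 fold changes of 0.76 to 0.98. Rab2 acts at the Golgi and, in flies, also in the delivery of cargo to lysosomes. It had 166, 185 and 173 CPM in the Rab11_KD libraries and 101, 97.1 and 89.9 CPM in the WT libraries. The replicates of each group lay close together, at 175 ± 9.31 CPM in Rab11_KD and 96.0 ± 5.70 CPM in WT (SD, n = 3 each). Rab2 rose by 0.87 on the log2 scale (SE 0.18, edgeR adjusted p = 0.0188). Its adjusted p was 0.0369 to 0.0766 with single libraries left out.

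Rab1, which is needed for transport from the endoplasmic reticulum to the Golgi, had 263, 269.9 and 339 CPM in Rab11_KD and 135, 110.0 and 199.98 CPM in WT. Both replicate 3 libraries were the highest of their group, and the lowest Rab11_KD library was still above the highest WT library. Its log2 fold change was 0.97 ± 0.28 (SE, edgeR adjusted p = 0.0548, and 0.0145 once replicate numbers were blocked). The current annotation places an antisense RNA over 742 exonic bases of Rab1, and the strand setting of the counting is not given in the sources used here.

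Rab6, a Golgi Rab of retrograde and exocytic traffic, spread more widely. It stood at 218, 285 and 143 CPM in Rab11_KD and at 119, 118 and 90.1 CPM in WT, with replicate 3 the lowest of each group. Its log2 fold change was 0.98 ± 0.29 (SE, edgeR adjusted p = 0.0601, and 0.0184 with the block). Rab30, another Golgi-associated Rab, had 24.3, 23.7 and 38.8 CPM in Rab11_KD and 18.7, 14.1 and 18.6 CPM in WT. In Rab30, the Rab11_KD replicate 3 library stood above the other Rab11_KD libraries (log2 fold change 0.76, edgeR adjusted p = 0.0871, and 0.0278 with the block).

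The 8 genes of endosomes and lysosomes divided into 4 without overlap between the groups (Rab5, Rab7, Rab14 and Rab39) and 4 with overlap (Rab4, Rab9, Rab21 and Rab35). Those without overlap were higher in Rab11_KD, as were 20.2% of all genes. Rab39, a Rab of the endolysosomal system, had nearly the same value in every Rab11_KD library, with 35.8, 36.1 and 36.3 CPM in Rab11_KD and 22.6, 21.6 and 24.4 CPM in WT. It rose by 0.66 on the log2 scale (SE 0.16, edgeR adjusted p = 0.0352), and its adjusted p was 0.0595 to 0.126 with single libraries left out. Rab14, which acts between the Golgi and endosomes and on phagosomes, had 53.9, 63.7 and 43.3 CPM in Rab11_KD and 31.5, 34.6 and 30.5 CPM in WT. It rose by 0.73 (SE 0.20, edgeR adjusted p = 0.0463). The call of Rab14 was lost with DESeq2 size factors in edgeR, with no filter on low counts and without each library other than Rab11_KD replicate 3, at adjusted p up to 0.149.

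Rab5, the organiser of early endosomes, had 277, 297 and 324 CPM in Rab11_KD and 187, 162 and 217 CPM in WT. Rab7, which takes over as endosomes mature towards lysosomes, had 259, 317 and 342 CPM in Rab11_KD and 177, 172 and 218 CPM in WT. For both genes the Rab11_KD libraries were all above the WT libraries. Their log2 fold changes of 0.67 and 0.69 did not pass (edgeR adjusted p = 0.0754 and 0.0752) and passed with the replicate block (0.0423 and 0.0387).

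Rab4 and Rab35, both Rabs of fast recycling from endosomes to the plasma membrane, differed by less than the spread between replicates. Rab4 had 37.4, 35.4 and 53.8 CPM in Rab11_KD and 32.6, 31.2 and 55.5 CPM in WT. Rab35 had 34.8, 31.3 and 43.6 CPM in Rab11_KD and 30.9, 36.0 and 38.3 CPM in WT. The log2 fold change was 0.08 for Rab4, with a 95% interval of -0.60 to 0.76, and 0.06 for Rab35, with an interval of -0.41 to 0.53. Rab9, which serves return from late endosomes to the Golgi, was at -0.04 with an interval of -0.60 to 0.52. Its levels were 37.9, 35.7 and 55.9 CPM in Rab11_KD and 53.6, 40.5 and 39.4 CPM in WT. Rab21, an early endosomal Rab, varied most between replicates of this group, at 31.2, 47.8 and 22.8 CPM in Rab11_KD and 31.5, 25.5 and 14.6 CPM in WT (log2 fold change 0.51, interval -0.35 to 1.37).

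Rab8 and Rab10 are related Rabs of transport to the plasma membrane, and their values differed. Rab10 had 174, 173 and 254 CPM in Rab11_KD and 109, 109.6 and 132 CPM in WT. Rab8 had 38.2, 36.0 and 46.7 CPM in Rab11_KD and 37.5, 32.6 and 47.1 CPM in WT. The groups did not overlap for Rab10 (log2 fold change 0.78 ± 0.23, SE, edgeR adjusted p = 0.0604, and 0.0248 with the block) and overlapped fully for Rab8 (0.04, interval -0.45 to 0.54). The difference between these changes was not tested. Rab40, whose protein carries a SOCS box that recruits a ubiquitin ligase, had 22.1, 24.2 and 17.4 CPM in Rab11_KD and 20.8, 15.8 and 10.002 CPM in WT (log2 fold change 0.46, interval -0.24 to 1.16).

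The remaining expressed genes were scarce. Rab3, best known for regulated exocytosis at synapses, had 6.22, 4.86 and 8.59 CPM in Rab11_KD and 3.81, 2.67 and 3.40 CPM in WT. All its Rab11_KD libraries lay above all WT libraries, and its log2 fold change of 1.0 ± 0.33 (SE, edgeR adjusted p = 0.0796, and 0.0465 with the block) was the highest of the 18. RabX4 had 3.61, 2.94 and 4.98 CPM in Rab11_KD and 1.78, 2.80 and 2.20 CPM in WT (log2 fold change 0.78, interval -0.07 to 1.63), and it shares 131 exonic bases with Kaz on the same strand in the current annotation. RabX6 had 6.58, 4.98 and 3.98 CPM in Rab11_KD and 6.86, 7.89 and 2.67 CPM in WT (-0.15, interval -1.20 to 0.91). Its exons overlap those of Vti1a on the opposite strand by 466 bases. Beside Rab3, the 14 enteroendocrine markers were all without overlap between the groups and higher, against 20.2% of all genes. One neuronal marker among 8 tested, Syx1A, was called as higher, against 9.05% of all genes, too few to set these markers apart. The neuronal markers summed to 66.9 to 101 CPM in Rab11_KD and 41.7 to 60.2 CPM in WT. Syx1A was the largest part of these sums, with means of 49.3 CPM in Rab11_KD and 26.8 CPM in WT. Of the 8 tested neuronal markers, 6 had log2 fold changes above 0, against 51.9% of all tested genes, while cpx (-0.88) and Syn (-0.20) were below 0. The part of the enteroendocrine and neuronal marker changes in the values of Rab3 and RabX4 was not tested.

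**Figure D2:**
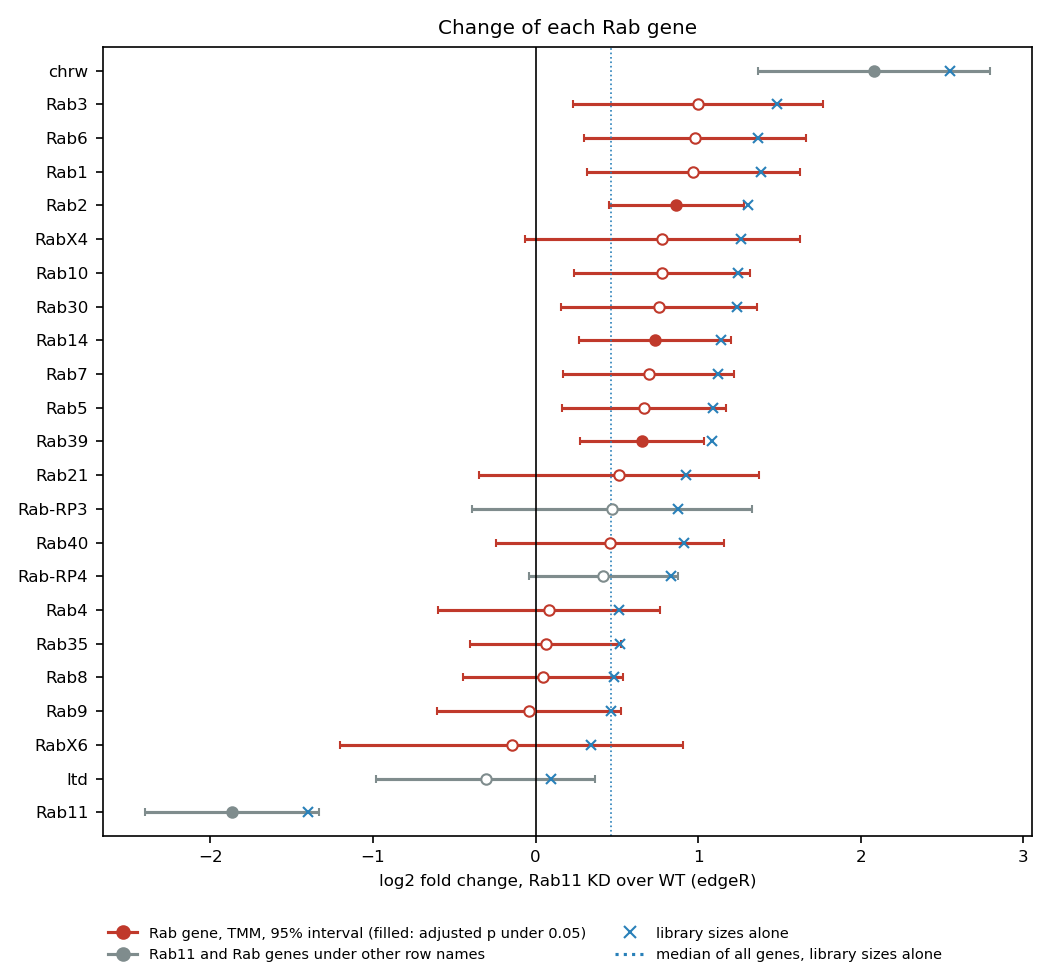
Log2 fold changes of Rab11_KD over WT with 95% intervals (edgeR, TMM) for 18 Rab genes in red, and for Rab11 and 4 Rab genes under other row names in grey; filled points passed an adjusted p under 0.05. Crosses give the same change with library sizes alone and the dotted line the median of all genes under that scaling, 0.47, about which Rab4, Rab35, Rab8 and Rab9 lie.

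The other 10 Rab genes were below the minimum. Summed over libraries, Rab26 had 29 counts in Rab11_KD and 6 in WT, a scaled ratio of 3.25 (95% interval 1.32 to 9.57, exact binomial). Rab27 had 14 and Rab23 had 14 counts in Rab11_KD, against 2 counts each in WT, which gave each a scaled ratio of 4.70 (interval 1.08 to 42.6). RabX5 had 5 counts in Rab11_KD and 3 in WT, a scaled ratio of 1.12 (interval 0.218 to 7.21), and RabX2 had 4 counts in Rab11_KD, all from replicate 3, and 0 in WT. These intervals cover counting error only, and most of the counts of Rab26, Rab23 and Rab27 in Rab11_KD came from the deep replicate 3 library. Rab9D, Rab9Db, Rab9E, Rab9Fa and Rab9Fb had 0 counts in all libraries, which allows up to 0.0548 CPM in Rab11_KD and 0.0593 CPM in WT (3 counts of each group's total). How reads shared by close copies of a gene were counted is not given in the sources used here.

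Levels of the 18 Rab genes were compared per kilobase of exon. Among the 18, Rab7, Rab1, Rab6, Rab2, Rab5 and Rab10 were the 6 highest in both groups. The lowest of them, Rab10, was above the next of the 18, Rab4, without overlap in either group. This order leaves out Rab11 and the 4 Rab genes under other row names. In Rab11_KD, Rab-RP4 was at 71.8, chrw at 58.0, Rab11 at 40.6, ltd at 18.6 and Rab-RP3 at 15.7 CPM per kb. In WT, Rab11 was at 148, Rab-RP4 at 53.8, ltd at 23.0, chrw at 13.8 and Rab-RP3 at 11.2 CPM per kb. Rab7 led the 18 with 179.8 ± 25.0 CPM per kb in Rab11_KD and 111 ± 14.8 CPM per kb in WT (SD, n = 3 each). Rab3 was last with 1.75 ± 0.502 CPM per kb in Rab11_KD and 0.877 ± 0.153 CPM per kb in WT. Neighbours in the order mostly could not be told apart by their ranges: 14 of 17 neighbouring pairs overlapped in Rab11_KD and 12 of 17 in WT. All 6 genes at the top of the 18 had higher values in Rab11_KD without overlap, against 20.2% of all genes. Of the other 12, 5 were higher without overlap as well (Rab14, Rab39, Rab30, RabX4 and Rab3). A relation between level and change was not tested.

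**Figure D3:**
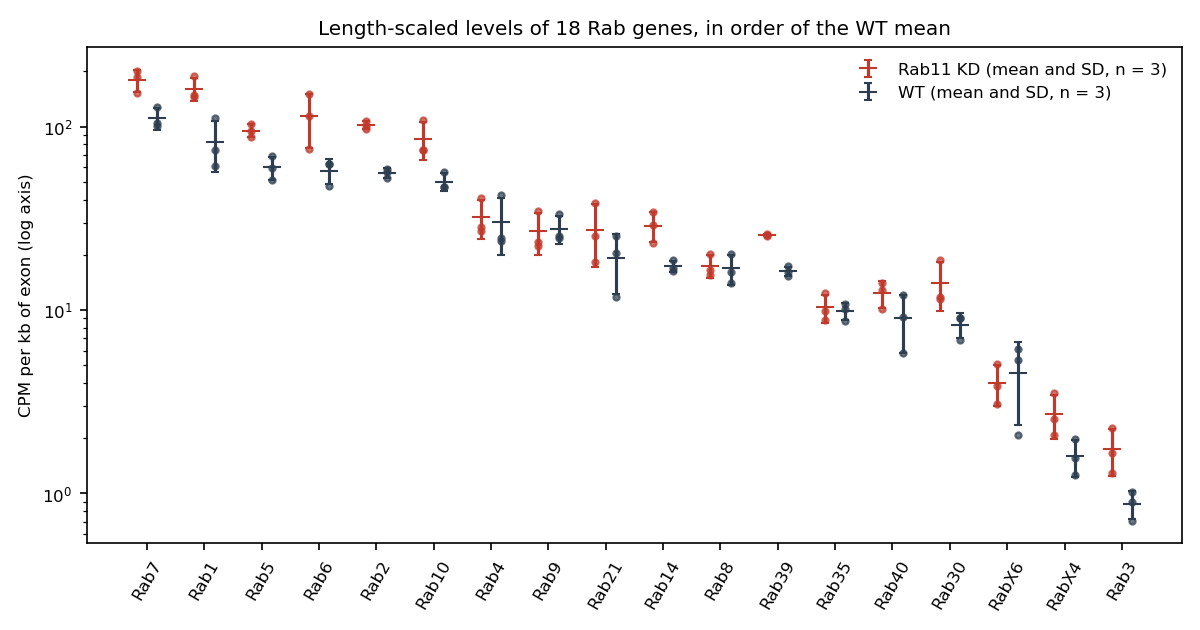
TMM-scaled CPM per kb of exon (log axis) for 18 Rab genes in order of their WT mean, with each library as a point and the mean and SD of Rab11_KD in red left of WT in dark blue (n = 3 each). A gap separates the first 6 genes, Rab7 to Rab10, from the rest of the 18 in both groups. Rab11 and the Rab genes under other row names are not shown.

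The 18 genes together made up 0.202%, 0.169% and 0.282% of the counts in the Rab11_KD libraries and 0.0872%, 0.0820% and 0.128% in the WT libraries. Their summed level was 941 ± 67.2 CPM per kb in Rab11_KD and 579 ± 47.6 CPM per kb in WT (SD, n = 3 each), with no overlap between the groups. Of the length-scaled level of the 18 genes and Rab11 together, Rab11 made up 4.13 ± 0.169% in Rab11_KD and 20.4 ± 3.79% in WT (SD, n = 3 each). The 4 Rab genes under other row names are not part of either total.

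Shares within this sum do not depend on how libraries are scaled. They stayed close for the most abundant endosomal Rabs: Rab7 held 19.0 ± 1.35% in Rab11_KD and 19.1 ± 1.19% in WT, and Rab5 held 10.1 ± 0.331% in Rab11_KD and 10.3 ± 0.666% in WT. For 4 genes every Rab11_KD share was below every WT share, namely Rab4, Rab8, Rab9 and Rab35. Rab8 held 1.91%, 1.61% and 2.04% in the Rab11_KD libraries and 2.80%, 2.65% and 3.24% in the WT libraries. Rab35 held 1.14%, 0.915% and 1.24% in Rab11_KD and 1.51%, 1.91% and 1.73% in WT. Rab4 averaged 3.40 ± 0.679% in Rab11_KD and 5.16 ± 1.36% in WT, and Rab9 2.85 ± 0.616% in Rab11_KD and 4.82 ± 0.936% in WT (SD, n = 3 each). No gene had shares that were higher in Rab11_KD without overlap. Shares sum to a fixed total, so these values are a description and were not tested.

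**Figure D4:**
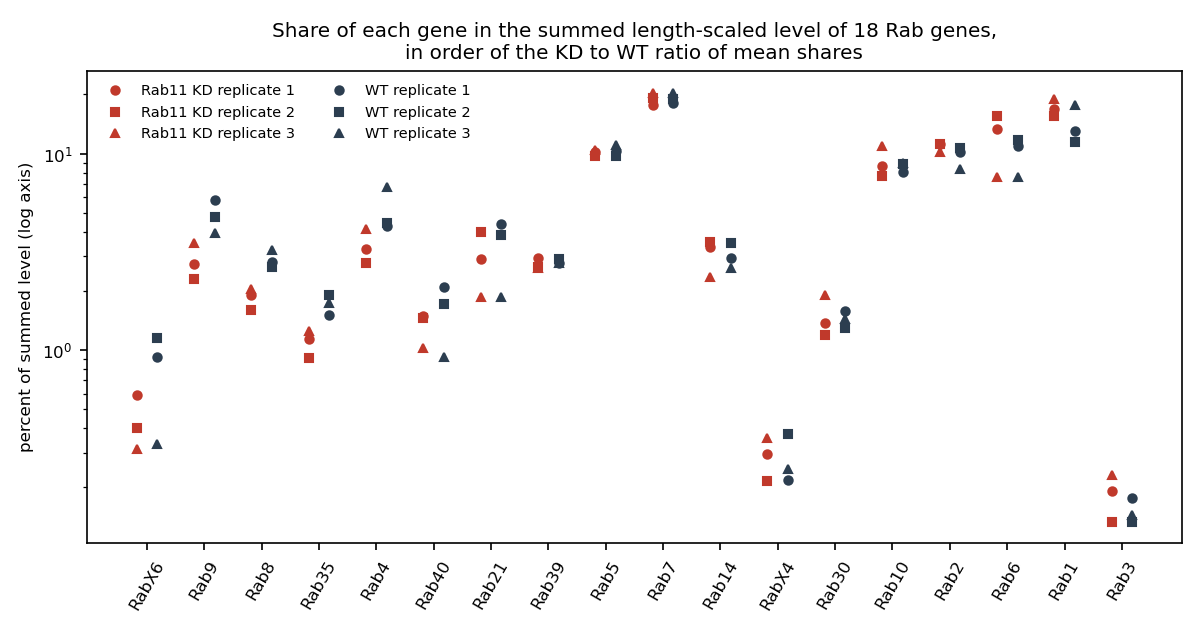
Share of each of 18 genes in their summed length-scaled level (percent, log axis), for Rab11_KD in red left of WT in dark blue, with a marker shape for each replicate number. Rab9, Rab8, Rab35 and Rab4, at the left beside RabX6, are the genes whose red points all lie below the dark blue ones.

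The table lists 4 further Rab genes under older names, which RefSeq pairs with Rab18 (Rab-RP4), Rab19 (Rab-RP3), Rab32 (ltd) and RabX1 (chrw), and which the name rule leaves out. One of them, chrw, changed more than any of the 18. It had 93.6, 103 and 89.8 CPM in Rab11_KD and 21.8, 31.95 and 14.3 CPM in WT, with a wide gap between the groups. It rose by 2.08 on the log2 scale (SE 0.30, edgeR adjusted p = 0.00576), 4.23-fold, and was called in each of the 14 other fits, at log2 fold changes of 1.78 to 2.55. Rab-RP4 had 55.1, 71.8 and 52.5 CPM in Rab11_KD and 47.5, 46.7 and 40.2 CPM in WT, without overlap but short of the threshold (0.42, edgeR adjusted p = 0.189). The groups overlapped for Rab-RP3 (0.47, interval -0.39 to 1.33) and for ltd, a Rab of lysosome-related organelles such as eye pigment granules (-0.31, interval -0.98 to 0.37).

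Genes that act on Rab proteins were read from the same fit, in 4 lists. In the list of GDI, escort and prenylation genes, edgeR called 2 of 5 as higher and none as lower (1 lower at an unadjusted p under 0.05, 0 by DESeq2), with a median log2 fold change of 0.62. Over all genes, 9.05% were called as higher. Rep, the Rab escort protein, had 48.9, 48.7 and 53.9 CPM in Rab11_KD and 16.0, 16.7 and 17.9 CPM in WT. The values within each group were nearly the same and the groups lay far apart (log2 fold change 1.58 ± 0.17, SE, edgeR adjusted p = 0.00264). CG12007, the alpha subunit of the enzyme that attaches lipid anchors to Rab proteins, had 98.98, 114 and 99.7 CPM in Rab11_KD and 55.6, 48.9 and 50.01 CPM in WT (1.02 ± 0.17, SE, edgeR adjusted p = 0.00984). The beta subunit betaggt-II was at 0.62 (edgeR adjusted p = 0.193, and 0.0280 with the block), and Gdi, which holds inactive Rabs in the cytosol, at 0.59 (edgeR adjusted p = 0.172). Gdi had 465, 623 and 399 CPM in Rab11_KD and 339, 362 and 287 CPM in WT. The remaining member, l(1)G0144 (temp), had the opposite sign and no overlap, with 7.64, 5.20 and 5.67 CPM in Rab11_KD and 10.8, 12.5 and 8.11 CPM in WT (-0.75, edgeR adjusted p = 0.116).

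Among 15 GEFs, edgeR called 1 as higher and none as lower (1 lower at an unadjusted p under 0.05, 1 by DESeq2), with a median of 0.21. The called gene was CG18659, a DENN domain protein of the kind that activates Rab35 in mammals. It had 110.2, 131 and 166 CPM in Rab11_KD and 37.0, 43.0 and 47.8 CPM in WT (log2 fold change 1.67 ± 0.22, SE, edgeR adjusted p = 0.00458), beside the values of Rab35 given above. CG18659, Rep and CG12007 were called in each of the 14 other fits. The GEF ca, known to act on Rab32 in pigment granules, was at -0.67 with lower values in every Rab11_KD library (edgeR adjusted p = 0.0564). It was called as lower in 5 of the 14 other fits, namely with the block (0.0316), by DESeq2 (0.0209), with DESeq2 size factors in edgeR (0.0441), without both replicate 3 libraries (0.0204) and without Rab11_KD replicate 3 (0.0433). None of 12 GAPs (median 0.05, 1 higher at an unadjusted p under 0.05, 1 by DESeq2) and none of 25 effectors of Rabs other than Rab11 (median 0.08, 4 higher at an unadjusted p under 0.05, 1 by DESeq2) was called by edgeR. With the replicate block, 8 of the 57 genes of these lists were called, 7 as higher, where the block called 29.3% of all genes and 15.2% as higher. Without it 3 of the 57 were called, where 16.7% of all genes were.

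**Figure D5:**
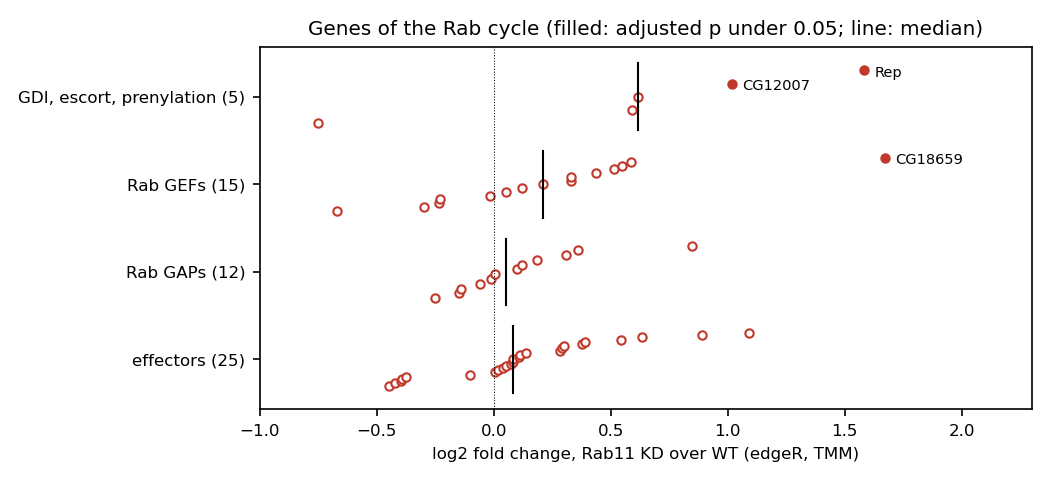
Log2 fold changes of Rab11_KD over WT (edgeR, TMM) of genes that act on Rab proteins, by list with the number tested, each gene a point, filled where adjusted p was under 0.05, and the list median a line. Rep, CG12007 and CG18659 are the filled points, 1 open effector lies slightly to the right of CG12007, and the GAPs and effectors centre near 0.

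The authors' deposited table gave a change for 8 of the 18 genes. It holds 2450 rows, higher and lower together, with adjusted p up to 0.0998. This is 15.9% as many as the count table, which also holds unexpressed rows, so the share among expressed genes is higher. In the authors' deposited table the 8 genes were Rab1 at 0.92, Rab2 at 0.84, Rab3 at 0.93, Rab5 at 0.64, Rab6 at 0.93, Rab7 at 0.66, Rab14 at 0.70 and Rab39 at 0.63 on the log2 scale, with adjusted p of 5.56e-05 (Rab2) to 0.0391 (Rab3). The authors' deposited table also gave chrw at 1.96 (adjusted p = 8.04e-08). With DESeq2 run on the counts here, 8 of the 18 were called as well, with Rab10 in place of Rab3, against 10.6% of all genes called as higher.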

How the data were processed

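Midgut RNA of 3 Rab11_KD and 3 WT libraries was compared. The deposited gene table holds unnormalized counts. STAR 2.4.2a, HTSeq 0.6.1, DESeq2 and the build BDGP5 are named, without their roles, per the submitters' processing notes. Gene annotation, counting mode and strand option were not given in the sources used here. The labels name Ion Torrent and Illumina without saying which library was made with which. A second deposited table, of the authors' own comparison, has columns that per the file headers hold log2 fold changes with standard errors, p-values and adjusted p-values, and scores (mean normalized count and Wald statistic); its highest adjusted p is 0.0998.

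Here, genes were kept by filterByExpr (minimum count 10), which left 8377, scaled by TMM (factors 0.78 to 1.45) and tested with edgeR 4.0.16 in R 4.3.3 (quasi-likelihood F-test, group only, two-sided, threshold 0.05). The test was checked on simulated data. Standard errors come from the F statistic. Exonic lengths, overlaps and current names come from the BDGP6 annotation and RefSeq, a build other than the authors', so no coordinates are given. Of 138 entries of the lists of Rab regulators and markers, 136 matched a row. Libraries of a group differed beyond sampling noise (chi-square per gene 67.7 to 376). Replicate numbers are shared, and deviations of same-numbered libraries correlated at 0.142, 0.209 and 0.715. Rab11_KD replicate 1 correlated more with WT replicate 2 (0.344), and Rab11_KD replicate 2 more with WT replicate 1 (0.509). Only the replicate 3 libraries matched best by number. The block therefore assumes a pairing that the labels do not state and that replicates 1 and 2 do not show. Named are all 28 genes, and, of the lists of Rab regulators and effectors, the members past the threshold, up to 6 a list; other list members and markers were chosen after their values were seen. The members and lists were chosen with earlier results of these data known. Alternatives were other scalings and filters, DESeq2 1.42.0, the replicate block and leaving out libraries.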

Additional observations from a re-analysis of the deposited data

How the results depend on the processing

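The count of called Rab genes among the 18 depended on the processing, while 0 were called as lower in any fit. It was 3 with TMM factors in edgeR, 6 with upper-quartile factors, 1 when low counts were kept, 8 with DESeq2, 10 with the replicate block, 5 without both replicate 3 libraries, and 0 to 3 with single libraries left out. It stayed within 1.5 times of 3 with DESeq2 size factors in edgeR (2), library sizes alone (4), a minimum of 10 counts in 3 libraries (3), and with the 4 Rab genes under other row names added (4), the last chosen after seeing the data. Over all genes, 1397 were called (758 higher and 639 lower; 1154 and 240 with library sizes alone), 2451 with the replicate block and 460 to 1138 with single libraries left out. Of the 57 Rab regulators and effectors, 3 were called, against 16.7% of all genes in either direction. The count was 6 with library sizes alone (16.6% of all genes), 6 with DESeq2 (21.2%) and 8 with the block (29.3%). It was 5 without both replicate 3 libraries (21.1%) and 3 to 4 with single libraries left out (5.4% to 13.5%). The cause of these shifts was not tested. The sign turned for genes near 0 that were never called. With library sizes alone, Rab9 was at 0.46, RabX6 at 0.34 and ltd at 0.093. With upper-quartile factors Rab9 was at 0.030, and without both replicate 3 libraries Rab35 was at -0.038. With single libraries left out, Rab9 ranged over -0.28 to 0.12, Rab4 over -0.14 to 0.35, RabX6 over -0.56 to 0.15, Rab8 over -0.087 to 0.15, Rab35 over -0.097 to 0.16 and ltd over -0.49 to 0.0012. The scarce genes Rab3, RabX4 and RabX6 rest on as few as 14 counts in a library.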

Other observations

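The replicate 3 libraries, the deepest of each group, also held the extreme value of many Rab genes in both groups at once. Over all tested genes, the deviations of these libraries from their group means correlated at 0.715. The share of all genes with such extremes was not computed, so the counts below are not particular to the Rab genes. In 8 of the 18 genes (Rab1, Rab4, Rab5, Rab7, Rab8, Rab10, Rab35 and Rab39) replicate 3 was the highest of Rab11_KD and of WT, and in 5 (Rab6, Rab14, Rab21, Rab40 and RabX6) it was the lowest of both. Taking same-numbered libraries together, the ratio of Rab11_KD over WT was above 1 in all 3 pairs for 12 of the 18 genes. The share of all genes with such ratios was not computed, so this count does not set the Rab genes apart. For Rab2 the log2 ratios were 0.72, 0.93 and 0.95, for Rab39 0.66, 0.74 and 0.58, and for Rab1 0.96, 1.30 and 0.76. The labels do not say whether the sequencing platform differed between the libraries.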
